A study of Mus musculus with 4 samples.

Results

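The 37 mitochondrially encoded genes were followed by RNA sequencing in libraries labelled Jurkat, a human line derived from a T cell leukaemia. The members were all rows placed on chromosome MT in the deposited table, 37 of 58735 gene rows: 13 protein-coding genes, 2 rRNA genes and 22 tRNA genes. The study has 4 libraries, 2 labelled wild-type and 2 labelled MATR3 knockout, the latter made by CRISPR-Cas9. The labels describe both groups as Jurkat cells kept in the same serum-containing medium with antibiotics, and name no other treatment. They do not say whether the knockout is 1 clone or a pool, or whether the 2 libraries of a group came from separate cultures. A p-value here is thus measured against a spread between libraries that could be purely technical. The organism label says mouse, but the identifiers and the named line are human.

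The circular mitochondrial genome is transcribed on both strands as long precursor RNAs, from which the tRNAs are cut out so that the messenger and ribosomal RNAs between them are released. Its protein genes encode core subunits of the respiratory chain and of the ATP synthase, and its rRNAs and tRNAs serve the translation of those subunits inside the organelle. Because the genes of a strand start on a shared precursor, the amounts of the single mature RNAs also depend on how each is processed and how long it lasts. All nuclear proteins of the mitochondrion, including its RNA polymerase and ribosomal proteins, are imported from the cytosol.

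Library totals ranged from 15008554 to 17477643 counts. The targeted gene did not check the labels: its main row, MATR3, had 19 and 9 wild-type reads against 42 and 61 in the other group, and a second, overlapping MATR3 row had 5 and 1 against 2 and 2. The group is called KO-labelled below, and every direction is that of the KO-labelled libraries against wild-type. All 12 T cell markers had enough reads to be tested, with a summed level of 3394.1 and 3158.3 CPM (counts scaled to a common library size with TMM factors) in wild-type against 1410.7 and 1376.7 CPM in the KO-labelled libraries, where 11 were lower and 0 higher. Of 16 myeloid markers 14 were tested, 12 higher and 1 lower. Of all tested genes, 33.7% were higher and 32.3% lower, the background for both marker lists. The summed level of the 16 was 492.9 and 484.0 CPM in wild-type and 5808.7 and 5696.5 CPM in the others. Most of the latter was MPO alone, at 8.48 and 9.34 CPM in wild-type against 4965 and 4859 CPM in the KO-labelled libraries. ELANE and CSF3R, which mark the granulocyte lineage, were at 0 in both wild-type libraries. Both had enough reads to be tested through the KO-labelled libraries only, so a gene of this kind could only be higher. PRTN3, at 0.802 and 0.439 CPM in wild-type, likewise needed the KO-labelled libraries to be tested. The 12 myeloid markers called higher thus include rows that could only be higher, and such rows were not counted. These marker differences are found in the same libraries as every mitochondrial difference below, and their part in it was not tested. In such bulk RNA, a change in which cells are present and a change in RNA per cell cannot be told apart.

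Mitochondrial RNA took a larger part of the reads in the KO-labelled libraries, in each of the 3 classes of gene. The 37 rows held 5.31% and 4.92% of all counts in wild-type against 9.49% and 9.33% in the KO-labelled libraries, so the groups did not overlap. The 95% Wilson intervals of these shares reached at most 0.0148 percentage points to either side, covering counting error only. Protein-coding genes made up most of this, at 4.90% ± 0.286 of all counts in wild-type against 8.83% ± 0.106 in the KO-labelled libraries (SD, n = 2 each). The rRNA genes went from 0.191% ± 0.00718 to 0.528% ± 0.0111, a ratio of 2.77, and the tRNA genes from 0.0219% ± 0.0018 to 0.0537% ± 0.00245, a ratio of 2.45 (SD, n = 2 each). An exact two-sided permutation test gave p = 0.333 for the total and for each class, the smallest value that 2 samples against 2 allow. By reads, not corrected for length, MT-CO1 was the top row of the table in each of the 4 libraries, and the 20 most abundant rows held 6 mitochondrial genes in both wild-type libraries and 9 and 8 in the KO-labelled libraries.

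**Figure D1:**
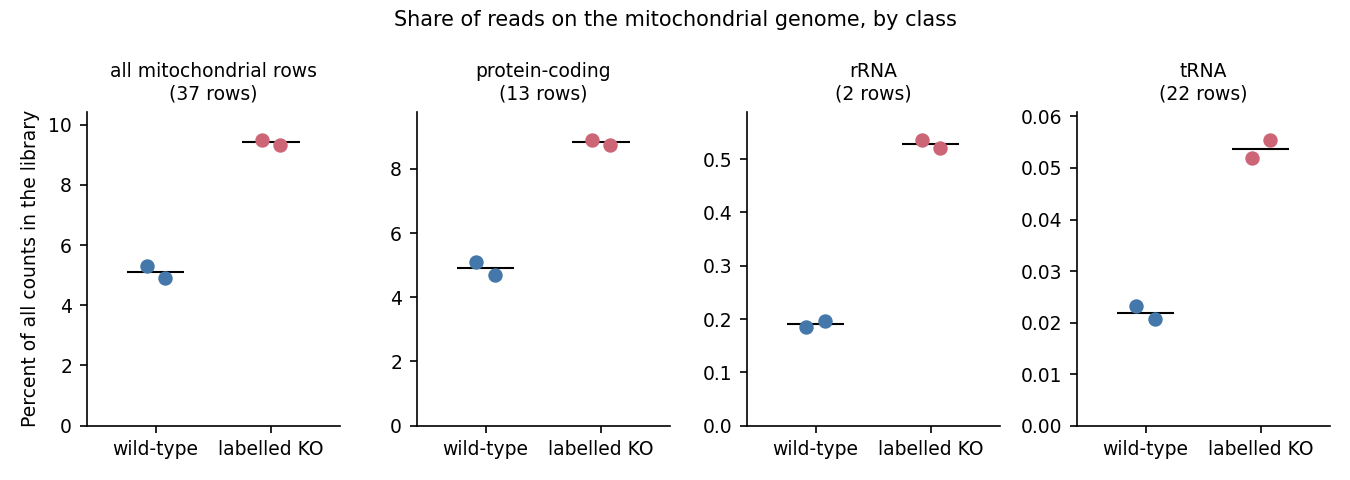
Percent of all counts of a library on the mitochondrial genome, for all 37 rows and for the 3 classes, each panel with its own axis from 0; points are libraries (replicate 1 left, replicate 2 right) and lines are group means. The 2 KO-labelled libraries lie above both wild-type libraries in every panel.

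Of the 37 rows, 25 passed the expression filter and were tested with all other genes. In edgeR's quasi-likelihood test 23 were higher and 0 lower at an adjusted p of 0.05, and the 2 that did not pass, MT-TG and MT-TH, were tRNA rows with few reads. The background is large, since 66.0% of all 15294 tested genes were called, 33.7% as higher and 32.3% as lower. The median log2 fold change over all tested genes was 0.02, against 1.01 over the 13 protein-coding members, all of which had enough reads for the test in both groups. Among 219 nuclear genes averaging at least 500 CPM, a level that every protein-coding member but MT-ATP8 exceeds, 78 were higher and 92 lower, with a median of -0.05. All 12 rows that were not tested were tRNA genes with 1 to 39 reads over the 4 libraries. Of the tested rows, MT-TE and MT-TR reached the filter through the KO-labelled libraries only, so a member of this kind had to be higher there to be tested. In CPM, 23 of the 25 tested rows lay higher in both KO-labelled libraries than in both wild-type libraries and 0 lay lower, beside 41.6% and 40.4% of all tested genes.

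The 3 catalytic core subunits of cytochrome c oxidase, complex IV, spanned nearly the whole range of change among the protein genes. MT-CO1 (ENSG00000198804, chromosome MT, 5904 to 7445, plus strand; the sources used here name no build) encodes the subunit that holds the site of oxygen reduction. It stood at 17109 and 15327 CPM in wild-type against 21427 and 21243 CPM in the KO-labelled libraries. The groups did not overlap. In edgeR's quasi-likelihood test MT-CO1 had a log2 fold change of 0.40 (SE 0.091, adjusted p = 0.000101), the smallest of the protein genes. This call was lost without KO-labelled replicate 1 (adjusted p = 0.175) and without KO-labelled replicate 2 (adjusted p = 0.141), with log2 fold changes of 0.39 and 0.40.

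MT-CO2 (7586 to 8269), whose subunit takes electrons from cytochrome c, had 6959 and 6192 CPM in wild-type against 10712 and 10694 CPM in the KO-labelled libraries, a log2 fold change of 0.70 (SE 0.0853, adjusted p = 2.33e-11). MT-CO3 (9207 to 9990), the third core subunit, had 5131 and 4631 CPM in wild-type against 13953 and 13030 CPM in the KO-labelled libraries. Its log2 fold change was 1.47 (SE 0.0873, adjusted p = 9.5e-26), a 2.76-fold difference where that of MT-CO1 was 1.32-fold. The number of MT-CO3 reads per MT-CO1 read was 0.300 and 0.302 in wild-type against 0.651 and 0.613 in the KO-labelled libraries, a change in this ratio of 2.10-fold (exact two-sided permutation p = 0.333, the smallest possible, for a pair chosen after its values were seen). The replicates of each group lay close together on this ratio, and the gap between groups was larger than their spread.

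**Figure D2:**
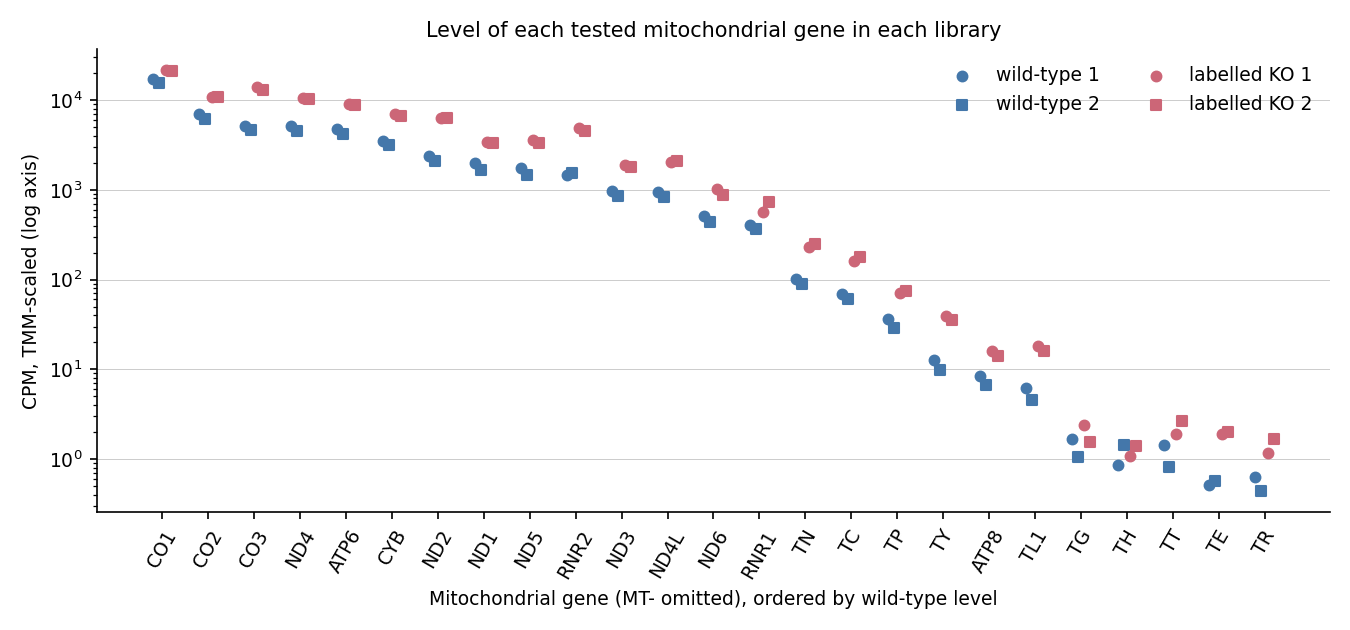
CPM (log axis) of the 25 tested mitochondrial genes in each library, ordered by wild-type mean; blue is wild-type, red the KO-labelled libraries, circles replicate 1 and squares replicate 2. Both red points lie above both blue points for every gene but MT-TG and MT-TH, with the narrowest gap at MT-CO1.

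The 7 genes for subunits of complex I, the NADH dehydrogenase, were all higher. MT-ND1 had the smallest and MT-ND2 the largest log2 fold change among them. MT-ND2 (ENSG00000198763, 4470 to 5511, plus strand), part of the proton-pumping membrane arm, went from 2357 and 2109 CPM in wild-type to 6349 and 6309 CPM in the KO-labelled libraries (2.83-fold, SE of the log2 value 0.0817, adjusted p = 5.03e-28). Its neighbour MT-ND1 (3307 to 4262), at the joint of the membrane arm with the matrix arm, had 1987 and 1678 CPM against 3444 and 3344 CPM (log2 fold change 0.89, SE 0.0791, adjusted p = 9.31e-17). MT-ND2 thus had 1.19 and 1.26 reads per MT-ND1 read in wild-type against 1.84 and 1.89 in the KO-labelled libraries. MT-ND4L and MT-ND4, which overlap by 7 bases and form 1 messenger RNA, were at 1.23 (SE 0.0752) and 1.11 (SE 0.0853). MT-ND4 had 5146 and 4525 CPM in wild-type against 10582 and 10304 CPM in the KO-labelled libraries. MT-ND5, a further pump subunit, had 1757 and 1450 CPM against 3616 and 3334 CPM (adjusted p = 3.56e-21), and MT-ND3 was at 1.01 (SE 0.0753).

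MT-ND6 (14149 to 14673) is the 1 protein gene on the minus strand of the table. It had 506.1 and 433.1 CPM in wild-type against 1016.9 and 875.6 CPM in the KO-labelled libraries, a log2 fold change of 1.01 (SE 0.0754, adjusted p = 2.06e-20). That is the median value of the 13 protein genes. The sources used here do not state the strand setting of the counting, so reads from RNA of the opposite strand may be included in this and every other row.

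MT-CYB, the cytochrome b of complex III (14747 to 15887), went from 3513 and 3132 CPM to 6931 and 6608 CPM, a log2 fold change of 1.03 (SE 0.0822, adjusted p = 6.49e-19). The 2 ATP synthase genes are read from overlapping frames of 1 messenger RNA. MT-ATP6, the subunit through which protons pass, had 4740 and 4217 CPM in wild-type against 9004 and 8824 CPM in the KO-labelled libraries, a log2 fold change of 0.99 (SE 0.0839). MT-ATP8, a small stator subunit, had 8.37 and 6.77 CPM in wild-type against 15.9 and 14.1 CPM in the KO-labelled libraries (log2 fold change 0.98, SE 0.181, adjusted p = 1.96e-06). Although they share a messenger RNA, the MT-ATP8 row held 0.00169 reads per MT-ATP6 read in wild-type against 0.00168 in the KO-labelled libraries (means, n = 2 each). The MT-ATP8 row is 207 bases long and shares 46 of them with MT-ATP6, and the sources used here do not say how reads over both were counted, so its level is uncertain.

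The middle 7 of the 13 protein genes, MT-ATP8, MT-ATP6, MT-ND3, MT-ND6, MT-CYB, MT-ND4 and MT-ND5, lay within a narrow band around 1 on the log2 scale, from MT-ATP8 at 0.98 up to MT-ND5. MT-CO1, MT-CO2 and MT-ND1 lay below them, and MT-ND4L, MT-CO3 and MT-ND2 above. In genome order the highest protein gene, MT-ND2, and the lowest, MT-CO1, are separated only by tRNA rows. From MT-CO1 the values rose gene by gene to MT-CO3, and the protein genes after it, MT-ND3 to MT-CYB, lay between 1.01 and 1.23.

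**Figure D3:**
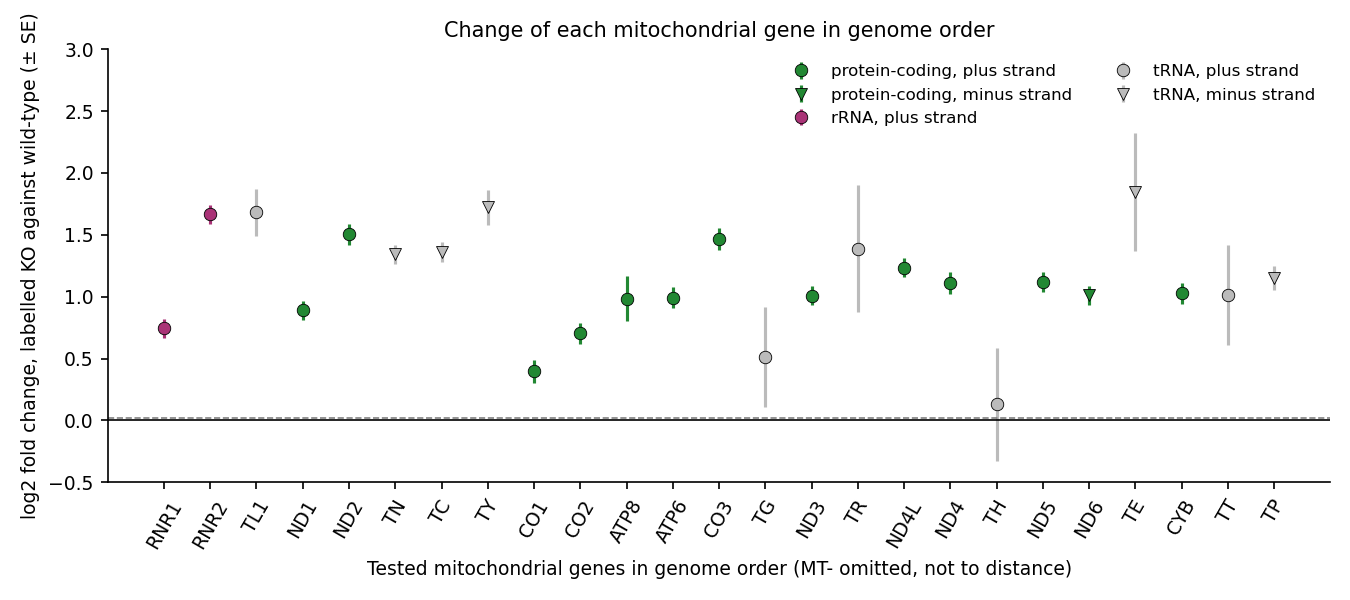
Log2 fold change, KO-labelled libraries against wild-type, of the 25 tested genes in the order of the mitochondrial genome, with standard errors; the MT- prefix is left out, circles are plus-strand and triangles minus-strand rows, the solid line is 0 and the dashed line the median of all tested genes (0.02). The long genes range from 0.40 at MT-CO1 to 1.67 at MT-RNR2, and the protein genes from MT-ND3 to MT-CYB lie between 1.01 and 1.23.

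The 2 ribosomal RNAs, which lie side by side near the start of the plus-strand precursor, changed by different amounts. MT-RNR2 (ENSG00000210082, 1671 to 3229), the 16S RNA of the large mitochondrial ribosomal subunit, had 1451 and 1525 CPM in wild-type against 4904 and 4534 CPM in the KO-labelled libraries. Its log2 fold change of 1.67 (SE 0.0797, adjusted p = 2.32e-31) was above that of every protein gene. MT-RNR1 (ENSG00000211459, 648 to 1601), the 12S RNA of the small subunit, had 407.6 and 365.2 CPM in wild-type against 570.6 and 723.4 CPM in the KO-labelled libraries (log2 fold change 0.74, SE 0.0765, adjusted p = 4.88e-14). The KO-labelled SD of MT-RNR1 was 108.1 CPM around a mean of 647.0 CPM.

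Per kilobase of row length, MT-RNR2 held 2.18 and 2.55 times the reads of MT-RNR1 in wild-type and 5.26 and 3.84 times in the KO-labelled libraries. The ratio rose 1.90-fold without overlap (exact two-sided permutation p = 0.333, the smallest possible). Reads on the rRNA rows were 0.0390 ± 0.00374 per protein-gene read in wild-type against 0.0598 ± 0.000539 in the KO-labelled libraries (SD, n = 2 each), again without overlap. Both mature rRNAs carry at most short poly(A) tails, and the sources used here do not say whether poly(A) selection or rRNA depletion was used. Reads on the rRNA rows therefore need not measure the amounts of mature rRNA in the cells.

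A further list was drawn up of RNAs taken to mostly lack poly(A) tails, chiefly from replication-dependent histone genes. The counts do not show whether the reads on these rows came from RNA with or without a tail. Of 10 tested rows among 23, 9 were higher and 0 lower, beside 33.7% and 32.3% of all tested genes. The median log2 fold change of the 10 was 1.94. The summed level of the list was 21.3 CPM in both wild-type libraries and 104.4 and 128.4 CPM in the KO-labelled libraries. HIST1H2BK, a histone H2B gene, went from 2.38 ± 1.25 to 37.3 ± 2.32 CPM (SD, n = 2 each). RN7SL2, an RNA of the signal recognition particle and 1 of the 9, had 5.16 and 7.96 CPM in wild-type against 6.40 and 28.3 CPM in the KO-labelled libraries. Its groups overlapped, and only KO-labelled replicate 2 was high. The part of RNA selection in the mitochondrial differences was not tested.

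Reads on the 22 tRNA rows were few and lay almost wholly on 4 minus-strand rows. MT-TN, MT-TC, MT-TP and MT-TY, the tRNAs for asparagine, cysteine, proline and tyrosine, held 94.6% of the tRNA reads, 22110 of them over the 4 libraries, and the other 18 rows together held 1255. MT-TN (ENSG00000210135, 5657 to 5729) had 100.2 and 88.5 CPM in wild-type against 232.1 and 246.8 CPM in the KO-labelled libraries, a log2 fold change of 1.34 (SE 0.0749, adjusted p = 2.29e-27). MT-TC (5761 to 5826) followed with 69.9 and 61.0 CPM against 159.9 and 176.6 CPM (log2 fold change 1.36, SE 0.0793). MT-TY (5826 to 5891) was at 1.72 (SE 0.143) and MT-TP (15956 to 16023), next to the control region of the genome, at 1.15 (SE 0.0971). In none of these 4 did the groups overlap.

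MT-TN, MT-TC and MT-TY sit in a cluster of tRNA genes between MT-ND2 and MT-CO1, the 2 protein genes with the largest and smallest changes. The cluster's other minus-strand member, MT-TA (5587 to 5655), had 2 and 1 reads in wild-type and 0 in both KO-labelled libraries, while MT-TN beside it had 1748, 1411, 3407 and 3667. MT-TW, on the plus strand just before it, had 0 and 3 reads in wild-type against 4 and 0 in the KO-labelled libraries. Over all tRNA rows, the 8 on the minus strand held 95.1% of the tRNA reads and the 14 on the plus strand 4.93%. This split was 17.4 and 18.7 minus-strand reads per plus-strand read in wild-type, 18.2 and 21.9 in the KO-labelled libraries, which overlapped (exact two-sided permutation p = 0.667).

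MT-TL1, the leucine tRNA that directly follows MT-RNR2, was the plus-strand tRNA row with most reads, 107 and 72 in wild-type against 267 and 240 in the KO-labelled libraries (log2 fold change 1.68, SE 0.188, adjusted p = 1.24e-12). Its change was close to that of MT-RNR2, which it adjoins. MT-TE had 9 and 9 reads against 28 and 30 (log2 fold change 1.85, SE 0.477, adjusted p = 0.000492). Like MT-TR, it reached the expression filter through the KO-labelled libraries only, so both had to be higher there to be tested. MT-TR, with 11 and 7 against 17 and 25 reads, and MT-TT, with 25 and 13 against 28 and 40, passed with adjusted p of 0.0138 and 0.0227, and both calls were lost without wild-type replicate 2 (adjusted p = 0.072 and 0.165) or without KO-labelled replicate 2 (adjusted p = 0.205 and 0.259). MT-TG (29 and 17 reads against 35 and 23) and MT-TH (15 and 23 against 16 and 21) did not pass, with log2 fold changes of 0.52 (SE 0.403) and 0.13 (SE 0.456).

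Among the 12 untested tRNA rows, MT-TI had 22 and 6 reads in wild-type against 6 and 5 in the KO-labelled libraries, MT-TD 4 and 4 against 14 and 8, and MT-TS1 6 and 7 against 3 and 6. MT-TV had 2 and 2 reads against 9 and 1, MT-TL2 3 and 6 against 7 and 0, and MT-TM 1 and 8 against 1 and 0. MT-TS2 had 1 read in each library, and MT-TK, MT-TQ and MT-TF had 1 read each over all 4 libraries. These counts are too small to read a difference from. A tRNA row is 59 to 75 bases long, so a read assigned to it may also derive from an unprocessed precursor or from RNA of the other strand.

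Which genes changed more or less than mitochondrial RNA as a whole was examined by fitting all genes again with the summed mitochondrial count of each library as its size. On that scale the median of all tested genes was -0.91, and 9.13% of genes were called higher and 66.4% lower. Among the members 12 were called higher and 2 lower. The shares sum to 100%, so when the gene with the largest share falls, others must rise, and the count of members called lower was 5, with 8 higher, when both rRNAs and MT-CO1 were left out of the sum. Only 8 members kept their call and direction under all 8 alternatives of this fit: MT-RNR2, MT-ND2, MT-CO3, MT-ND4L, MT-TN and MT-TY were higher, and MT-CO1 and MT-CO2 lower.

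The share of MT-CO1 in mitochondrial reads fell from 32.1% and 32.3% in wild-type to 22.1% and 22.5% in the KO-labelled libraries (relative log2 fold change -0.53, SE 0.0195, adjusted p = 4.68e-10). The share of MT-CO2 fell from 13.1% ± 0.0235 to 11.2% ± 0.209 (SD, n = 2 each, relative log2 fold change -0.22, SE 0.0243). MT-CO3 rose from 9.64% and 9.75% to 14.4% and 13.8% (relative log2 fold change 0.54, SE 0.0264), and MT-ND2 from 4.43% and 4.44% to 6.55% and 6.69% (0.58, SE 0.029). MT-RNR2 rose from 2.73% and 3.21% to 5.06% and 4.81% (0.73, SE 0.0604), and MT-ND4L from 1.76% and 1.77% to 2.13% and 2.25% (0.31, SE 0.0401). By complex, the 3 complex IV genes went from 55.0% ± 0.151 to 47.6% ± 0.111 of mitochondrial reads and the 7 complex I genes from 25.4% ± 0.463 to 29.8% ± 0.0471 (SD, n = 2 each). For MT-RNR1 the relative value was -0.18 (SE 0.0934, adjusted p = 0.0993) and for MT-ND1 -0.03 (SE 0.0356, adjusted p = 0.39), neither past the threshold here. The MT-RNR1 value was called lower at -0.38 without KO-labelled replicate 2 (adjusted p = 8.81e-05) and was -0.000999 without KO-labelled replicate 1. MT-ND1 was called lower, at -0.20 (adjusted p = 0.000243), with MT-CO1 and the rRNAs out of the sum, and at -0.07 without wild-type replicate 2 (adjusted p = 0.0439). MT-ND3, at 0.08 and not called (adjusted p = 0.0653), was called higher at 0.11 without wild-type replicate 1 (adjusted p = 0.00646). MT-ATP6 and MT-CYB, called higher at 0.07 and 0.10, turned to -0.10 and -0.07 when MT-CO1 and the rRNAs were left out of the sum.

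**Figure D4:**
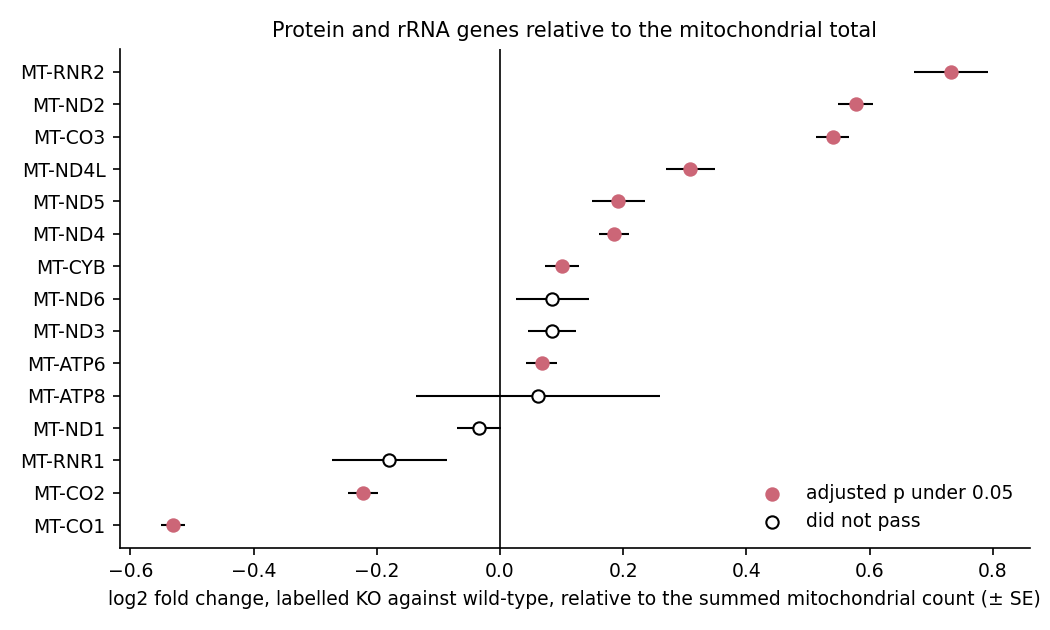
Log2 fold change, KO-labelled libraries against wild-type, relative to the summed mitochondrial count, for the 13 protein and 2 rRNA genes with standard errors; filled points passed an adjusted p of 0.05 in the edgeR quasi-likelihood test. MT-CO1 (-0.53) and MT-CO2 (-0.22) lie lowest, MT-RNR2 (0.73), MT-ND2 (0.58) and MT-CO3 (0.54) highest; MT-ATP6 and MT-CYB change sign with another reference sum.

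Levels were compared between genes per kilobase of the deposited row length. In wild-type MT-CO1 (10517 ± 817 CPM per kb) and MT-CO2 (9613 ± 793 CPM per kb) stood highest. MT-ATP6 (6576 ± 543) and MT-CO3 (6226 ± 452) followed (SD, n = 2 each). Each pair overlapped across libraries. Within each wild-type library, however, MT-CO1 lay above MT-CO2 and MT-ATP6 above MT-CO3. In the KO-labelled libraries MT-CO3 led with 17208 ± 832 CPM per kb, ahead of MT-CO2 at 15648 ± 17.6, MT-CO1 at 13836 ± 84.6 and MT-ATP6 at 13090 ± 186 (SD, n = 2 each), and none of these neighbours overlapped. MT-CO3 thus went ahead of MT-ATP6, MT-CO2 and MT-CO1, and MT-CO1 behind MT-CO2. At the lower end the order was nearly the same in both groups, with MT-RNR1 and then MT-ATP8 last. MT-ND5 and MT-ND6 overlapped in each group, at 885 ± 120.0 and 894.5 ± 98.3 CPM per kb in wild-type. With the strand setting not stated, the MT-ND6 reads may include RNA of the opposite strand.

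Nuclear copies of mitochondrial genes can share reads with the originals. Of 394 such pseudogene rows outside chromosome MT, 33 had a read, and 4 rows, all on chromosome 1, held 99.7% of their 53247 reads, which is 1.18% of the number on the mitochondrial rows. MTND2P28 (chromosome 1, 629640 to 630683) had a wild-type level of 213.4 ± 13.8 CPM against 654.9 ± 49.2 CPM in the KO-labelled libraries (SD, n = 2 each), a 3.07-fold difference beside 2.83-fold for MT-ND2. On the log2 scale MTATP6P1 was at 1.08 beside 0.99 for MT-ATP6, and MTCO1P12 at 0.68 beside 0.40 for MT-CO1. MTCO3P12 had 3 and 1 reads in wild-type against 32 and 52 in the KO-labelled libraries. The reads of MTND2P28 were 10.1% of the number on MT-ND2, and those of MTATP6P1 5.88% of the number on MT-ATP6. Adding the copy's reads to the original gave a log2 ratio of 1.51 for MT-ND2 and changed that of MT-ATP6 from 0.99 to 1.00. The sources used here do not say how reads matching both places were assigned.

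Counts for the lists of nuclear genes that follow are to be read beside the 33.7% of all tested genes called higher, the 32.3% called lower and their median of 0.02. Of 8 tested genes of mitochondrial transcription, 3 were higher and 3 lower, with a median log2 fold change of 0.03, shares near that background. POLRMT, the mitochondrial RNA polymerase, fell from 411.7 ± 29.7 to 265 ± 12.5 CPM (SD, n = 2 each, log2 fold change -0.64, adjusted p = 1.2e-12). TFAM, which binds and bends the promoters and packs the DNA, had 30.8 ± 6.49 CPM in wild-type against 37.1 ± 0.643 CPM in the KO-labelled libraries (0.27, adjusted p = 0.0401). Of the transcription factor and methyltransferase pair, TFB2M did not pass (-0.20, adjusted p = 0.264) and TFB1M, which methylates the 12S rRNA, rose (0.52). MTERF3 (-0.88) and MTERF4 (-0.73) fell, MTERF1 rose (0.83), and the elongation factor gene TEFM did not pass (0.33, adjusted p = 0.248).

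Regulators of mitochondrial biogenesis were higher for 9 and lower for 1 of 10 tested genes (median 0.43), beside a background of 33.7% and 32.3%. MYC rose from 418.3 ± 9.07 to 649.5 ± 10.8 CPM (SD, n = 2 each), and the coactivator genes PPARGC1B and PPRC1 were at 0.48 and 0.29 on the log2 scale. CREB1 (0.56), the receptor gene ESRRA (0.48), GABPA (0.44), GABPB1 (0.42) and YY1 (0.35) also passed. TFAM (0.27), which is counted in the transcription list too, was likewise higher. NRF1, a transcription factor for many nuclear respiratory genes, was the 1 that fell (-0.35, adjusted p = 0.00523). PPARGC1A, the remaining listed gene, had too few reads to be tested.

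Among 35 genes of mitochondrial RNA processing, modification and decay, 10 were higher and 13 lower (median -0.01), and the 65.7% called in either direction was close to the 66.0% of all tested genes. LRPPRC, which stabilises mitochondrial messenger RNAs, had the largest change, from 56.0 ± 10.2 to 200.1 ± 3.41 CPM (SD, n = 2 each, log2 fold change 1.84, adjusted p = 4.62e-33). TRNT1, which adds the CCA end to tRNAs, rose (1.14), as did MTO1, a tRNA modification enzyme (0.94), and HSD17B10, a subunit of mitochondrial RNase P, fell (-0.99). Among 20 genes of mitochondrial DNA replication and maintenance, 6 were higher and 9 lower (median 0.00), against a background of 33.7% and 32.3%. The adenine nucleotide carrier SLC25A4 fell from 63.2 ± 0.765 to 18.3 ± 0.327 CPM and OPA1, a fusion GTPase of the inner membrane, rose from 13.7 ± 0.825 to 43.2 ± 0.407 CPM (SD, n = 2 each), while EXOG (-0.79) and RNASEH1 (-0.71), both nucleases, fell.

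For translation in the organelle, 8 factors were higher and 5 lower of 16 (median 0.24), where 33.7% and 32.3% of all tested genes were. The largest change was that of the initiation factor MTIF2 (1.36), with the insertase OXA1L (0.93) and the elongation factor gene GUF1 (0.84) also higher and the elongation factor TSFM lower (-0.91). Among 20 genes for mitochondrial aminoacyl-tRNA synthetases and amidotransferase subunits, 4 were higher and 10 lower (median -0.24), beside the same 33.7% and 32.3%. TARS2, which charges threonine tRNA, rose from 57.5 ± 0.0721 to 329.1 ± 0.332 CPM and QRSL1 was at 1.49, while EARS2, for glutamate, fell (-0.99). Of 77 tested genes for mitochondrial ribosomal proteins, 15 were higher and 42 lower (median -0.29), again beside 33.7% and 32.3% of all tested genes. MRPS21 (1.59) and MRPS30 (1.28) had the largest rises and MRPL27 (-1.29) and MRPL51 (-1.15) the largest falls. TARS2 (chromosome 1, 150487364 to 150507609) and MRPS21 (chromosome 1, 150293720 to 150308979) lie close together.

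Nuclear-encoded subunits of the respiratory chain and ATP synthase, which are built into the same complexes as the 13 mitochondrial products, were higher for 9 and lower for 48 of 80 tested (median -0.38), while 33.7% of all tested genes were higher and 32.3% lower. NDUFB2 of complex I fell from 138.9 ± 3.62 to 59.4 ± 6.59 CPM (SD, n = 2 each), and ATP5ME (-1.22), NDUFA2 (-1.04) and COX7B (-0.98) also fell. Their summed level was 11950 and 11299 CPM in wild-type against 10335 and 10305 CPM in the KO-labelled libraries, so the groups did not overlap and lay in the opposite order to the mitochondrially encoded subunits.

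**Figure D5:**
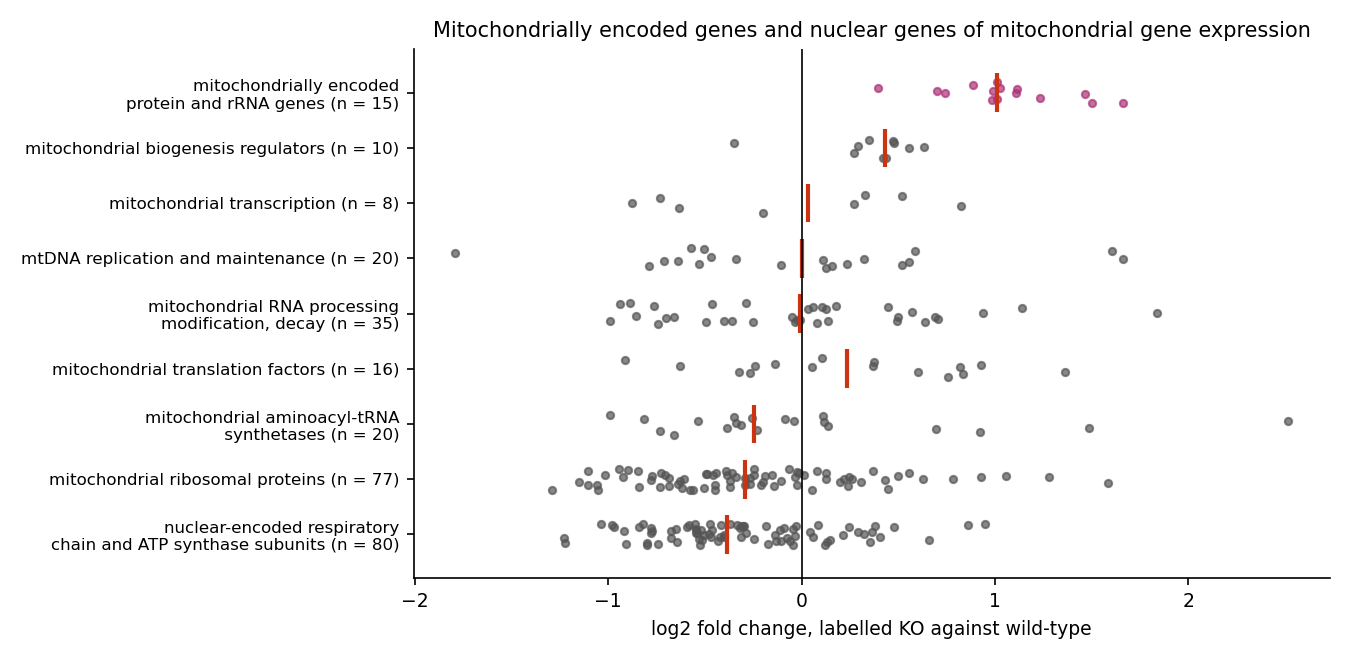
Log2 fold change, KO-labelled libraries against wild-type, of each tested gene (points) in the mitochondrially encoded protein and rRNA genes and in 8 lists of nuclear genes, with medians as red bars; vertical scatter is only to separate points. All 15 mitochondrially encoded genes lie above 0, whereas the median is -0.38 for the nuclear-encoded respiratory subunits and -0.29 for the mitochondrial ribosomal proteins.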

How the data were processed

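The authors deposited 1 table of raw read counts per gene with no normalization. Per the submitters' processing notes the tools were CASAVA (1.8), HISAT2 (2.0.5) and featureCounts (1.5.0-p3), with no roles stated, and the sources used here name no genome build, strand setting or treatment of reads with several matches. The 4 count columns were matched to samples through the descriptions, and symbols, biotypes, lengths and coordinates come from the deposited table. RNA was extracted with Trizol, per the labels' protocols.

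All genes were fitted with edgeR 4.0.16 in R 4.3.3: TMM factors (0.978 to 1.04), its expression filter (10 counts minimum, 15 in total, or about 0.657 CPM), a quasi-likelihood test and Benjamini-Hochberg adjustment over 15294 genes at 0.05. A second fit of the same genes used each library's summed mitochondrial count as its size. Shares and ratios were compared by exact permutation over libraries. SE is that of the log2 fold change, worked back from the test as its absolute value divided by the square root of the F statistic. Replicates differed beyond sampling noise (chi-square per mitochondrial row 125.8 in wild-type and 47.1 in the others), so each counted as 1. Counts were simulated with 15294 genes, 200 of them changed, split evenly by direction and not drawn from genes of low level. The test recovered 86% of the 2-fold changes and 99% of the 4-fold changes, with 15 false calls among 200. In the data 66.0% of tested genes were called, so the simulation does not show how the scaling or test performs there.

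The members and gene lists were chosen with earlier results of these data known. The text names every member, and from each list up to 4 tested genes with the largest change and a mean of at least 5 CPM, all tested genes of the transcription and biogenesis lists, and the 4 nuclear copies with most reads. Not every gene that this rule takes is described. Alternatives were other scalings (DESeq2 size factors, upper quartile, none, mitochondrial rows left out), the DESeq2 1.42.0 Wald test, limma 3.58.1 voom, 2 other filters, a threshold of 0.01, other reference sums, a replicate block, and leaving out each library.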

Additional observations from a re-analysis of the deposited data

How the results depend on the processing

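Over the 14 alternatives of the comparison, members called higher ranged from 20 to 23 and members called lower stayed at 0; leaving out a library gave 20 to 23. MT-CO1 ranged from 0.32 to 0.51 on the log2 scale, and the other calls lost were of MT-TR and MT-TT. Relative to the mitochondrial total, members called lower (2) became 5 without the rRNAs and MT-CO1 in the sum, where MT-ATP6 (-0.10) and MT-CYB (-0.0698) reversed, 4 without an expression filter, and 2 to 4 on leaving out a library; members called higher ranged from 8 to 15, and from 9 to 15 on leaving out a library. In that fit MT-RNR1 was called lower without wild-type replicate 1 or 2, or without KO-labelled replicate 2 (adjusted p = 4.37e-05, 6.25e-05 and 8.81e-05), and also without MT-CO1 and the rRNAs in the sum (0.00253), without a filter (0.00807) and with a replicate block (0.000207), and its value ranged from -0.38 to -0.000999. Calls were also gained there by MT-ND1 (lower) without MT-CO1 and the rRNAs in the sum (-0.20) and without wild-type replicate 2 (-0.07), by MT-ND3 (higher) against the protein-coding sum (0.11, adjusted p = 0.0211), with a replicate block (0.08, adjusted p = 0.0371) and without wild-type replicate 1 (0.11), and by MT-ND6 and MT-TP (higher, 0.12 and 0.31) and MT-TH (lower, -1.21) without wild-type replicate 1. The sign of MT-ND3 turned (-0.09, adjusted p = 0.0888) without MT-CO1 and the rRNAs in the sum. Per kilobase, the log2 change of the ratio was 0.48 for rRNA to protein rows (0.62 by reads), 0.30 for minus- to plus-strand rows (0.20 by reads) and 0.38 for tRNA to protein rows (0.44 by reads). As a percent of protein-coding counts, the rRNA difference was 0.348 points (0.337 of all counts). On leaving out a library, the MT-RNR2 to MT-RNR1 difference ranged from 0.70 to 1.16. Same-numbered libraries share only a number (correlation of deviations 0.0278 across genes, 2 pairs). With a replicate block 23 members were higher, 0 lower, and of all genes 5147 were higher and 4923 lower; relative to the mitochondrial total 13 were higher and 3 lower. Untested tRNA rows had at most 39 reads over the 4 libraries.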
